A study of Mus musculus with 18 samples.

Results

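The microRNA mmu-miR-205-5p (miR-205-5p) was described across 18 mouse liver small-RNA libraries and set against the miR-200 family of the same libraries. It is 1 of the 758 mature miRNAs in the deposited table and was taken by its name. It was chosen by its measured level, which was higher in libraries of the HF diet, so its diet differences are given as a description without a test. All mice were wild-type C57BL/6J, an inbred laboratory strain, on a regimen from 5 weeks of age, and livers were taken at 62 weeks. There were 6 groups of 3 libraries. Every mouse received an LF or an HF diet, either with nothing further (LF and HF), with CR (LF+CR and HF+CR) or with Ex (LF+Ex and HF+Ex). These names are read as low-fat and high-fat diets, calorie restriction and exercise, which the labels leave abbreviated. The labels do not state whether libraries of a group were made from separate mice, so p-values measure the spread between these libraries, which may be technical.

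A mature miRNA is a short RNA cut from a hairpin. It pairs with messenger RNAs mainly through its seed, a short run of bases near the 5′ end, and lowers their output. miR-205 is best known from epithelia such as skin, breast and prostate, where it acts beside the miR-200 family in repressing ZEB1 and ZEB2, transcription factors that promote the mesenchymal state. In liver the miR-200 family is known mostly from the epithelial cells of the bile ducts, whereas miR-122 is the characteristic miRNA of hepatocytes.

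The mature sequences are shown to make clear that miR-205 is set against a family with other seeds. Sequences are RefSeq's for GRCm38.p6, 5′ to 3′, with the seed (bases 2 to 8) in capitals.
miR-205-5p: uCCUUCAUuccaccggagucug
miR-205-3p: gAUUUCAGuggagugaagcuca
miR-200b-3p: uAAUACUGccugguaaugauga
miR-200c-3p: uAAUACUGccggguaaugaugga
miR-429-3p: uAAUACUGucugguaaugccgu
miR-200a-3p: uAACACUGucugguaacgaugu
miR-141-3p: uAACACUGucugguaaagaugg

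The miR-200 family splits into a pair of seed groups, with miR-200b, miR-200c and miR-429 in the first and miR-200a and miR-141 in the other. The seed of miR-205-5p was held by 0 other mature names among the 1679 mouse names in the RefSeq table. Its closest mature sequence was 7 edits away over its 22 bases, so no near-identical copy is known in that table to share its reads. A matching sequence was found for 606 of the 758 listed miRNAs.

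The hairpin is given because both arms of miR-205 are cut from it, with the arms in capitals.
Mir205 hairpin: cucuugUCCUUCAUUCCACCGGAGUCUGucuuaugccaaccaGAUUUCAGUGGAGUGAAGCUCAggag
It lies at chr1:193507463-193507530 on the minus strand of GRCm38, the build known as mm10. This is inside exon 2 of the 2 exons of the long non-coding RNA gene 4631405K08Rik (Mir205hg in RefSeq), and that exon spans chr1:193507238-193508899.

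The libraries carried the liver profile in all 18 cases, with miR-122-5p between 201007 and 292388 RPM, the read number scaled to a common library total. Reads on listed miRNAs ranged from 2.38 to 10.5 megareads, and HF+Ex 1, HF+CR 3 and HF+CR 1 were the shallowest. HF+CR 3 stood apart in makeup, in part together with LF 1. Of the 18 libraries HF+CR 3 had the highest summed RPM of the miR-200 family (8018) and of leukocyte and Kupffer cell miRNAs (8991). It was also highest for stellate and mural cell miRNAs (15976), while its hepatocyte sum (321138) was the second lowest. Its sum of other epithelial miRNAs (3639) was the highest too, but only just above that of LF+CR 3 (3630). LF 1 also had a high miR-200 sum (5684) and a high leukocyte and Kupffer sum (7745), and its hepatocyte sum (317366) was the lowest. Results that rest on HF+CR 3 are given with and without it.

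miR-205-5p, the arm that carries nearly all reads of its hairpin, was scarce but present in every library. It ranged from 3.80 to 129.7 RPM, a 34.1-fold span, on 35 to 955 reads. By abundance it was placed between 137 and 322 among the listed miRNAs. The opposite arm, miR-205-3p, was listed at 0, meaning 0 or 1 read, in 17 libraries and had 2 reads in HF+Ex 3.

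In the HF libraries miR-205-5p was at 73.7, 102.6 and 63.2 RPM, on 485, 431 and 410 reads. The HF+Ex libraries were at 129.7, 127.7 and 52.5 RPM, on 319, 955 and 471 reads. These were the high groups, and 5 of their 6 libraries lay above every library of the other 4 groups. The exception was HF+Ex 3, which was below HF+CR 3. A complete separation of HF and HF+Ex above the other groups was seen for 1 of the 351 miRNAs abundant enough to test, or 0.285%, which was not miR-205-5p.

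The HF+CR libraries held 11.5, 8.64 and 56.2 RPM, on 41, 49 and 168 reads. Libraries 1 and 2 of that group lay inside the range of the LF diet, and HF+CR 3, which stood apart in makeup, lay near the HF range. The exact 95% Poisson interval was 8.24 to 15.6 RPM for HF+CR 1, 6.39 to 11.4 RPM for HF+CR 2 and 48.0 to 65.3 RPM for HF+CR 3. The difference inside this group was therefore larger than counting error. Such intervals cover counting error only, because the reads carry no molecular identifiers.

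On the LF diet, miR-205-5p was at 18.4, 10.1 and 27.1 RPM in LF, on 73 to 248 reads. It was at 5.04, 5.52 and 11.4 RPM in LF+CR, on 40, 35 and 60 reads, and at 34.1, 3.80 and 14.8 RPM in LF+Ex, on 251, 41 and 123 reads. The LF and LF+CR ranges overlapped slightly, and the LF+Ex libraries spanned both.

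**Figure D1:**
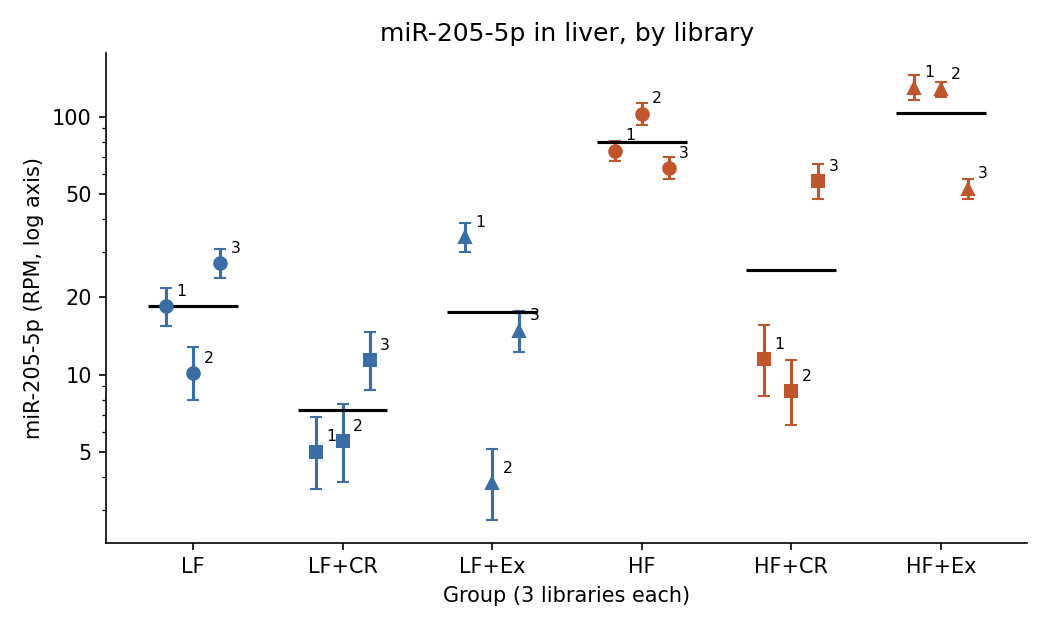
miR-205-5p in RPM (log axis) for each of the 18 libraries by group, with replicate numbers beside the points. Blue marks the LF diet and orange the HF diet, circles the diet alone, squares CR and triangles Ex; error bars are exact 95% Poisson intervals of the reads and black lines are group means. HF and HF+Ex are high, and HF+CR is split between 2 low libraries and HF+CR 3 at 56.2 RPM.

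In order of the mean, HF+Ex held 103 ± 44.0 RPM, HF 79.8 ± 20.4, HF+CR 25.4 ± 26.6, LF 18.5 ± 8.46, LF+Ex 17.6 ± 15.3 and LF+CR 7.31 ± 3.54 RPM (SD, n = 3 each). Of the 5 neighbouring pairs in that order, 4 had overlapping ranges and differed by less than the larger SD. The remaining pair was HF and HF+CR, whose ranges did not overlap and whose means differed by 54.4 RPM. Within groups the SD of log2(RPM + 1) was 0.95 for miR-205-5p and 0.94 for the miR-200 sum. Adding 1 shrinks the spread of miR-205-5p more, because its RPM are lower.

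The values by which miR-205-5p was chosen are its diet differences. On the scale of log2(RPM + 1), which understates changes of low miRNAs, the 3 HF groups exceeded the 3 LF groups by 2.06 ± 0.40 (SE, n = 9 libraries a diet), a 4.18-fold difference. This was the highest diet difference of the 351 miRNAs tested, followed by miR-155-5p at 1.57 and miR-690 at 1.47. By regimen the log2 difference was 2.12 for the diet alone, 2.80 with Ex and 1.27 with CR (SE 0.70 each, n = 3 a group). Among all 351 miRNAs, 18.5% passed the diet test, with limma and a Benjamini-Hochberg adjusted p under 0.05 as the threshold throughout. They were 56 higher and 9 lower, and the median log2 difference was 0.19. Rescaling the libraries by median-of-ratios size factors moved that median by -0.19, made the split 28 higher and 23 lower, and left miR-205-5p at 1.88.

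CR and Ex were compared within each diet to ask whether either regimen changed miR-205-5p, and the choice by diet did not use these comparisons. The HF libraries in them are nonetheless among those whose high level led to the choice. HF+CR was lower than HF by a log2 difference of -2.06 ± 0.70 (SE, 95% interval -3.54 to -0.58), or 4.16-fold, and all 3 HF+CR libraries lay below all 3 HF libraries. The adjusted p in limma was 0.170 (unadjusted p = 0.00966), so the difference did not pass. Of the 351 miRNAs, 0.0% passed this test in limma. At an unadjusted p under 0.05 there were 53, and voom weights in limma gave 0 calls. A complete separation of HF+CR below HF was seen for 33 miRNAs, or 9.4%, and a separation above HF for 18, or 5.13%.

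The HF+CR result turned on HF+CR 3. Without it the log2 difference was -2.85 ± 0.65 (SE, 95% interval -4.24 to -1.46) with an adjusted p of 0.0293 in limma, and 6.27% of the 351 miRNAs passed. The HF+CR mean was then 10.1 RPM, which put HF 7.93-fold above it instead of 3.14-fold. HF+CR 3 was the highest library of its group, so leaving it out had to widen the difference. The adjusted p without HF+CR 3 is therefore a description of how far 1 library matters, not support for a CR difference. Over all alternative settings the log2 difference kept its sign, with adjusted p values in limma from 0.0246 to 0.531. The part of the other cell types' miRNAs in the level of HF+CR 3 was not tested.

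On the LF diet, LF+CR differed from LF by a log2 difference of -1.21 ± 0.70 (95% interval -2.70 to 0.27, limma adjusted p = 0.279). This did not pass, while 6.27% of all miRNAs did, 2 higher (0.57%) and 20 lower (5.7%). Rescaling moved the median of all miRNAs by 0.33, from -0.32 to 0.02, turned that split into 8 higher and 7 lower, and brought miR-205-5p to -0.91. The difference between diets of the CR difference was -0.84 ± 0.99 (95% interval -2.94 to 1.25, limma adjusted p = 0.695), and it was -1.64 without HF+CR 3 (limma adjusted p = 0.391). In that test 0.855% of miRNAs passed. A larger CR difference on the HF diet than on the LF diet was thus not shown for miR-205-5p, and the interval spans differences of several-fold in size.

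Ex gave no call either. HF+Ex differed from HF by 0.29 ± 0.70 on the log2 scale (95% interval -1.20 to 1.77, limma adjusted p = 0.946), where 0.855% of miRNAs passed. LF+Ex differed from LF by -0.40 ± 0.70 (95% interval -1.88 to 1.09, limma adjusted p = 0.809), where 0.0% of miRNAs passed in limma; 41 had an unadjusted p under 0.05, and voom weights gave 1 call. The difference of the Ex difference between diets was 0.68 ± 0.99 (95% interval -1.41 to 2.78, limma adjusted p = 0.743), with 0.855% of miRNAs passing. LF+Ex 2, the lowest library of all, set the sign of the LF+Ex value, which was 0.37 without it, and of the difference between diets, which was -0.08 without it.

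**Figure D2:**
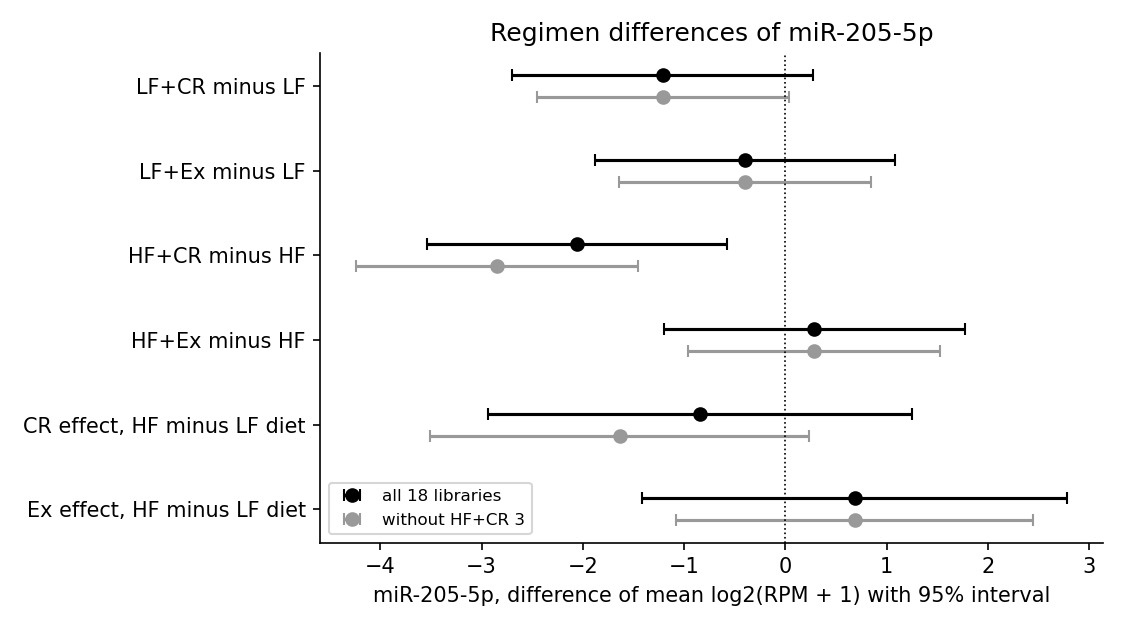
Differences of miR-205-5p between regimens, as differences of mean log2(RPM + 1) with 95% intervals from limma (n = 3 libraries a group), in black for all 18 libraries and in grey without HF+CR 3. Only the interval of HF+CR minus HF leaves out 0, with values of -2.06 and -2.85; with all libraries it did not pass after adjustment.

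The miR-200 family, the epithelial yardstick, did not follow miR-205-5p between the diets. Of its 10 names 9 were listed and 5, the 3p arms, were abundant enough to test; the listed 5p arms stayed under 15.4 RPM. In HF, where miR-205-5p was high, the family sum was 1465, 1492 and 1571 RPM, and in HF+Ex it was 1176, 1325 and 984 RPM. The family level was even there, with a coefficient of variation of 3.66% in HF and 14.7% in HF+Ex against 37.4 to 108% in the other 4 groups. In LF the sum was 5684, 999 and 1990 RPM, in LF+CR 2707, 1410 and 1565 RPM, and in LF+Ex 3782, 997 and 993 RPM. The HF+CR libraries had sums of 1282, 1433 and 8018 RPM. The 3 highest sums belonged to HF+CR 3, LF 1 and LF+Ex 1.

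Of the 5 tested members 0 passed the diet test in limma, and their log2 differences lay between -0.28 and -0.12 with adjusted p values from 0.694 to 0.847. The median of the 5 was -0.19, against 0.19 over all miRNAs, and it moved between -0.53 and 0.06 over the alternatives, so it has no settled sign. For HF+CR against HF, 0 of 5 passed in limma. Their log2 differences were all above 0, from 0.59 to 1.07 with a median of 0.69, and the median was -0.14 without HF+CR 3. The most abundant member, miR-200a-3p, was at 897 ± 43.3 RPM in the HF group and 676 ± 119 RPM with Ex on that diet (SD, n = 3). With CR on that diet it was at 2082 ± 2196 RPM, a spread set by HF+CR 3.

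Across the 18 libraries the log2 levels of miR-205-5p and of the miR-200 sum had a Pearson r of 0.09 (permutation p = 0.739) and a Spearman rho of 0.10 (permutation p = 0.679). Within the 9 LF diet libraries r was 0.49 (permutation p = 0.180) and within the 9 HF diet libraries it was 0.02 (permutation p = 0.933). With group means removed r was 0.69 (permutation p = 0.0427, or 0.206 after Benjamini-Hochberg adjustment over the 8 coefficients of this kind), and rho was 0.61 (permutation p = 0.0515). This positive r within groups did not pass the adjustment, and the order of libraries was not alike in all groups. LF+Ex 1 and HF+CR 3 were the highest of their groups on both measures. In LF and HF+Ex the highest library differed between the measures. In HF and LF+CR the libraries with the most miR-200, HF 3 (1571 RPM) and LF+CR 1 (2707 RPM), had the least miR-205-5p (63.2 and 5.04 RPM). Without HF+CR 3 and LF 1, the libraries farthest from the median miR-200 level, the r before removing group means was -0.0018 and the r with group means removed was 0.64 (permutation p = 0.208), close in size but no longer at a p under 0.05 on 16 libraries. The labels give no sequencing batch or date within which to repeat this.

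**Figure D3:**
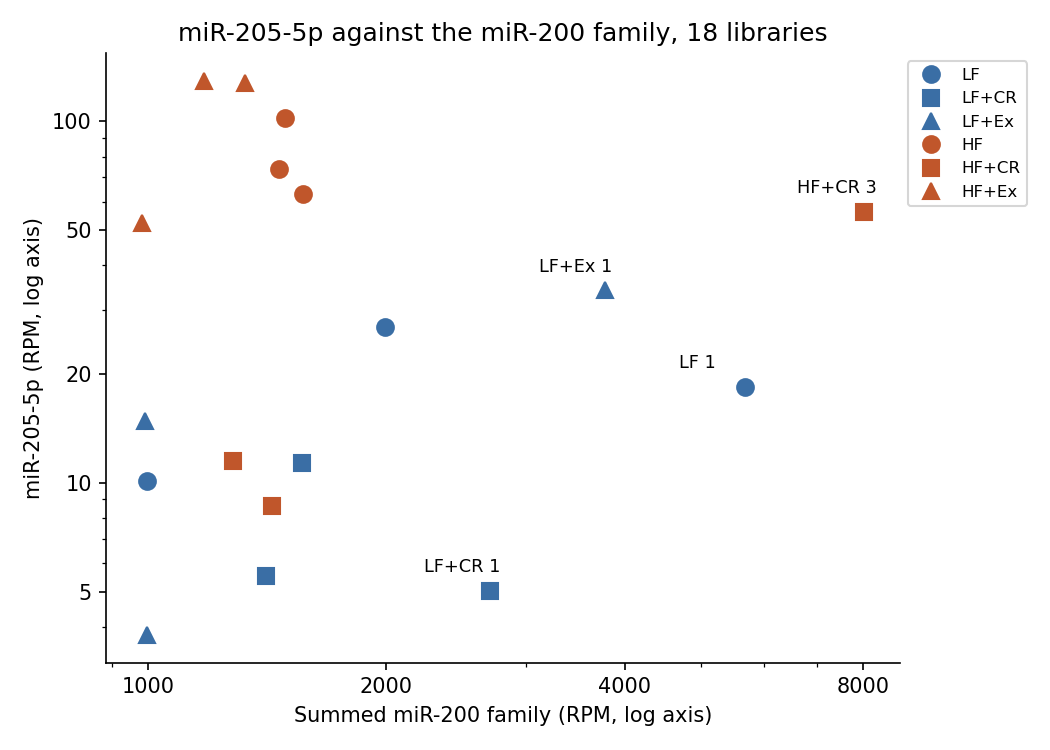
miR-205-5p against the summed miR-200 family, both in RPM on log axes, 1 point per library with colours and shapes by group. HF and HF+Ex sit high at family sums of 984 to 1571 RPM, and HF+CR 3 lies at the far right with 8018 RPM of the family.

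Expressed as a percent of the miR-200 sum, miR-205-5p was 5.03, 6.88 and 4.02% in HF and 11.02, 9.63 and 5.34% in HF+Ex. It was 0.90, 0.60 and 0.70% in HF+CR, so that HF+CR 3 lay with the others of its group. The miR-200 sum of HF+CR 3, by which its value is divided, was the highest of the 18 libraries (8018 RPM). The LF diet libraries ranged from 0.19 to 1.49%. All 6 HF and HF+Ex libraries were therefore above the 12 others. The share of all miRNAs that separate in this way when divided by the same sum is not given here, so the separation cannot be called particular to miR-205-5p. This percent was chosen after the values had been seen, and its diet side repeats the choice of miR-205-5p.

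For HF+CR against HF the percent differed by -2.84 on the log2 scale, or 7.16-fold, and the groups did not overlap. Here too no share over all miRNAs divided by that sum is given. The exact two-sided permutation p was 0.1, the smallest that 3 libraries against 3 can give, and 0.4 after adjustment over 8 such tests. Leaving out any 1 of the 6 libraries gave -3.02 to -2.64. With each of the 5 miR-200 3p arms or miR-122-5p alone as the denominator the difference ranged from -3.22 to -2.34, without overlap each time. HF+CR already lay below HF in RPM, and each of the 5 arms was highest of the 18 libraries in HF+CR 3. The lack of overlap with these denominators is therefore no separate support for a CR difference. With miR-122-5p, however, the HF+CR group stayed split, from 0.0031% up to 0.0259% in HF+CR 3. That value was just under the lowest HF library (0.0277%) and above the lowest HF+Ex library (0.0196%). The percent differed between LF+CR and LF by -1.03 (exact permutation p = 0.3), between HF+Ex and HF by 0.68 (exact permutation p = 0.2) and between LF+Ex and LF by 0.07 (exact permutation p = 0.9), on overlapping ranges. In bulk liver, more cells of a type and more RNA per cell cannot be told apart, for miR-205-5p as for the family.

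**Figure D4:**
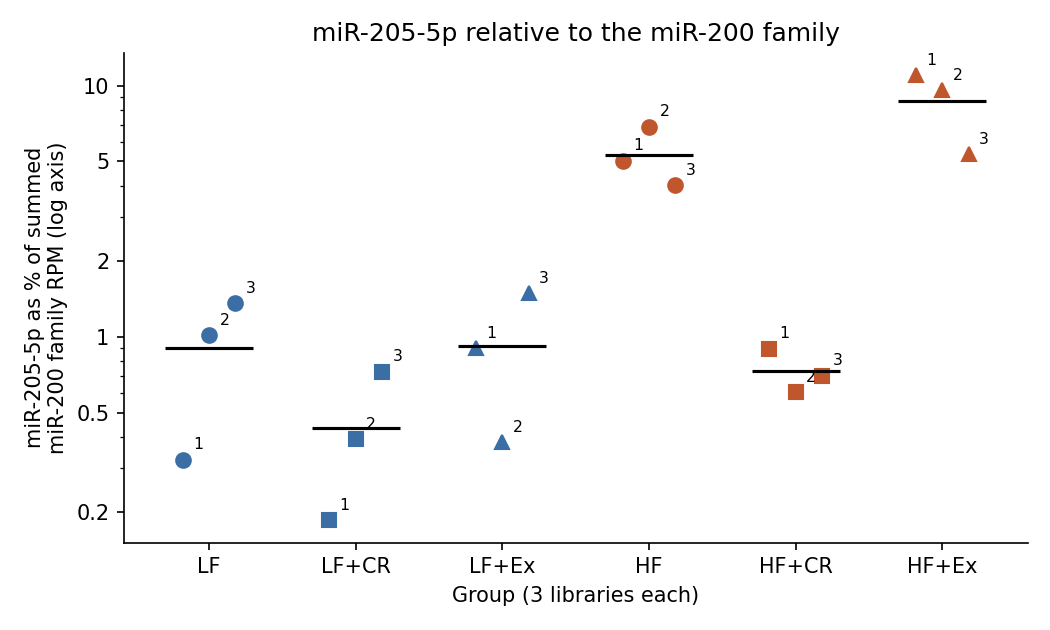
miR-205-5p as a percent of the summed miR-200 family RPM (log axis) in each library, with group means as black lines, replicate numbers, and colours and shapes as in the plot of RPM by library. HF and HF+Ex lie between 4.02 and 11.02%, and all 3 HF+CR libraries lie between 0.60 and 0.90%.

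Other miRNA lists were read for the same diet comparison, to show what differed beside miR-205-5p. Leukocyte and Kupffer cell miRNAs were higher with the HF diet for 5 of 7 tested members, against 16% of all miRNAs, with a median log2 difference of 0.79. They were miR-155-5p (1.57 ± 0.31 SE), which is induced in activated immune cells, the myeloid miR-223-3p (1.16 ± 0.28), the lymphocyte miR-150-5p (1.10 ± 0.32) and both arms of the pan-leukocyte miR-142 (0.79 ± 0.20 for 3p and 0.76 ± 0.22 for 5p). The summed level of the list was 3501 to 8991 RPM over the HF diet libraries and 2171 to 7745 RPM over the LF diet libraries, with medians of 5968 and 3003 RPM. No listed member was at 0 throughout. The call of miR-155-5p held under all 28 alternatives, whereas those of the other members were lost without the 3 shallowest libraries, where the number of miRNAs called fell from 65 to 6. In 18 fits that each left out 1 library, miR-223-3p and miR-142-3p kept their call in all 18, miR-150-5p in 13 and miR-142-5p in 10. Over all 28 alternatives, which include these fits, the call was lost in 1 for miR-223-3p, 2 for miR-142-3p, 8 for miR-150-5p and 11 for miR-142-5p. The part of these cells' miRNAs in the diet difference of miR-205-5p was not tested.

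Of 7 other epithelial miRNAs, 2 were lower with the HF diet, where 2.56% of all miRNAs were. These were miR-182-5p (-1.08 ± 0.29) and miR-96-5p (-1.04 ± 0.28), members of one sensory-epithelium cluster. From the same cluster, miR-183-5p did not pass (-0.84 ± 0.31, limma adjusted p = 0.0637). The calls of miR-182-5p and miR-96-5p were lost without the 3 shallowest libraries. They were also lost without LF+CR 1 and HF+CR 1, the libraries with the highest sums of pancreatic miRNAs (348 and 138 RPM). Of 15 tested miRNAs linked to insulin or lipid metabolism, 3 were higher and 2 lower, against 16% and 2.56% of all miRNAs. The higher members were miR-34a-5p (0.91 ± 0.29), miR-33-5p (0.56 ± 0.15) and miR-27b-3p (0.32 ± 0.08), and the lower ones were miR-130a-3p (-0.31 ± 0.10) and miR-29c-3p (-0.26 ± 0.09). Leaving out 1 library at a time, miR-33-5p and miR-27b-3p kept their call in all 18 fits, miR-34a-5p and miR-29c-3p in 5 each and miR-130a-3p in 4. After rescaling, the 3 higher calls were lost. Also against 16% of all miRNAs, 1 of 5 stellate and mural members was higher (miR-214-3p, 0.94 ± 0.29, kept in 7 of the 18 fits) and 1 of 2 endothelial members (miR-126-3p, 0.36 ± 0.09, lost after rescaling). Of the hepatocyte, pancreatic, neuronal, erythroid and fragment-like lists 0 of 8, 0 of 2, 0 of 3, 0 of 4 and 0 of 3 tested members passed in limma, where 18.5% of all miRNAs did. The fragment-like list, of names that often collect pieces of other RNAs, summed to 33.4 to 438 RPM with the HF diet and 28.1 to 60.1 RPM with the LF diet, and its part in the result was not tested.

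**Figure D5:**
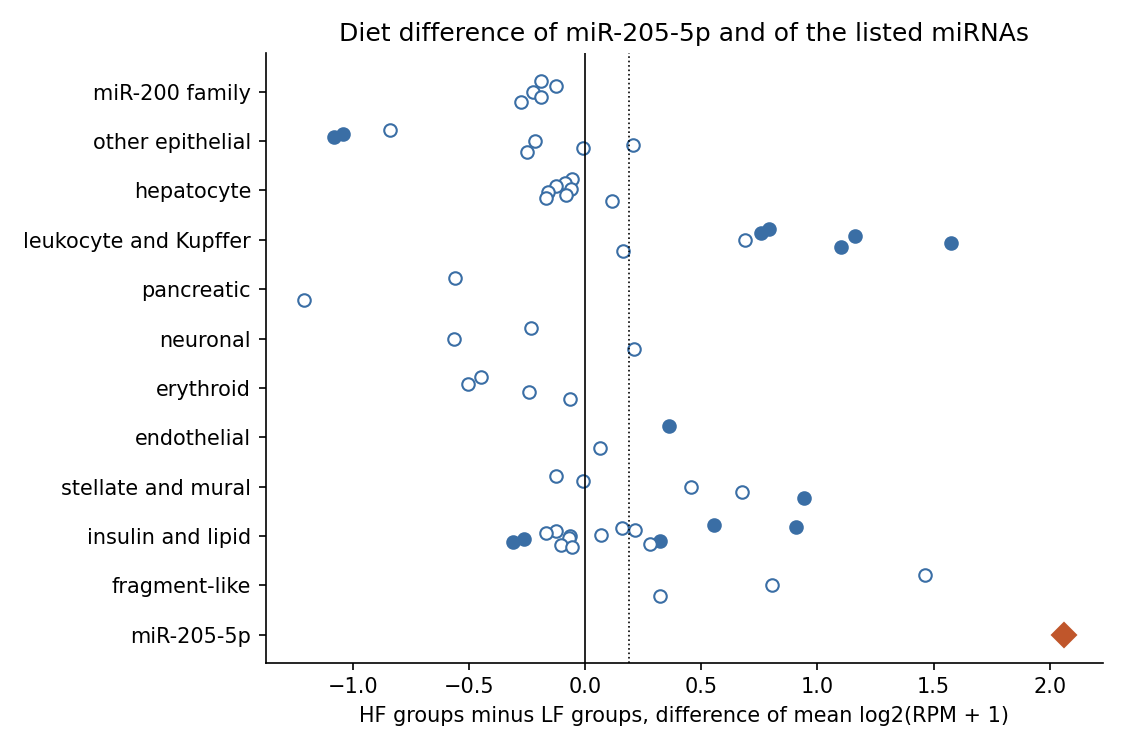
Differences of mean log2(RPM + 1) between the HF and the LF groups for the tested members of each list (filled where the adjusted p is under 0.05) and for miR-205-5p (orange diamond, chosen for this value, not tested). The dotted line is the median of all 351 miRNAs, 0.19, and miR-205-5p lies at 2.06. Leukocyte members lie to the right of 0, with miR-146a-5p (0.16, not called) left of the dotted line. The 5 miR-200 members lie just below 0.

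The miRNAs with a profile most like that of miR-205-5p were found by the Pearson r of log2(RPM + 1) over the 18 libraries, as a description. They were miR-501-5p (r = 0.91), miR-212-5p (0.86), miR-215-5p (0.86), miR-342-3p (0.84) and miR-149-5p (0.84). All of them followed the split of the HF+CR group. For miR-501-5p the HF and HF+Ex libraries held 45.0 to 61.8 RPM, HF+CR 1 and 2 held 40.1 and 38.4 RPM, HF+CR 3 held 53.1 RPM and the LF diet 28.6 to 48.1 RPM. For miR-342-3p, the HF and HF+Ex libraries held 414 to 731 RPM against 340, 114 and 634 RPM in HF+CR 1, 2 and 3 and 94.4 to 439 RPM with the LF diet. The most opposed profiles were miR-19b-3p (r = -0.61), miR-96-5p (-0.59), miR-592-5p (-0.56), miR-136-3p (-0.56) and miR-29c-3p (-0.55). The median r with miR-205-5p was 0.07 for the 5 miR-200 members, 0.67 for the 7 leukocyte and Kupffer members and 0.33 for all 350 other tested miRNAs. It was 0.55 for the stellate and mural members and 0.52 for the endothelial members. For the other epithelial, hepatocyte, pancreatic, neuronal and erythroid lists it was below 0, from -0.42 to -0.06. The insulin and lipid list was at 0.02 and the fragment-like list at 0.21.

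With the group means removed, which leaves the variation between libraries of the same group, the order was different. The highest r belonged to miR-24-3p (0.81), miR-330-5p (0.80), miR-339-5p (0.78), miR-106b-3p (0.76) and miR-181a-1-3p (0.74), and 0 of these 5 were among the former 5. The median r was now 0.68 for the miR-200 members, 0.69 for the stellate and mural members, 0.43 for the leukocyte and Kupffer members and 0.29 for all others. The most opposed were let-7g-5p (r = -0.56), the hepatocyte miRNA miR-122-5p (-0.56), miR-1968-5p (-0.54), miR-101a-5p (-0.53) and miR-187-5p (-0.52). These coefficients share libraries, depth and the RPM total and carry no test.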

How the data were processed

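Small RNA was sequenced from frozen mouse liver after Trizol extraction and small-RNA enrichment, per the labels' protocols. The deposited values are RPM for 758 mature miRNAs, the unit that the file headers name. The headers do not say which library total the authors scaled to, and the listed values sum to 963788 to 971207 RPM a library. Per the submitters' processing notes, the genome build was mm10. Not given in the sources used here are the aligner, the counting tool, the annotation release and any filter. In each library all values were whole multiples of 1 RPM step (tolerance 0.001), the smallest listed being 2 reads, which gave the read numbers.

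miRNAs with at least 5 RPM in at least 3 libraries (351) were tested on log2(RPM + 1) in limma 3.58.1 (R 4.3.3), with 18 libraries in 1 fit, a coefficient per group, an intensity trend and Benjamini-Hochberg adjustment. Tests were two-sided. Correlations used 100000 permutations, and SciPy 1.17.1 gave the exact permutation tests of the percent. miR-205-5p, the lists and the tests were chosen with earlier results of these data known. Named miRNAs were both arms of miR-205, list members and, in each form, the 5 most alike and 5 most opposed profiles. The fit was tested on simulated data. Alternatives were size factors, a pseudocount of 5, a 50 RPM filter or none, no trend, compared groups only, a replicate block and left-out libraries. voom and the percent of miR-200 were added after seeing the data.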

Additional observations from a re-analysis of the deposited data

How the results depend on the processing

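The miR-205-5p diet difference kept its sign under all 28 alternatives (1.66 to 2.29 on the log2 scale). HF+CR minus HF was -2.85 without LF 1 and HF+CR 3 (limma adjusted p = 0.0246), which again leaves out the highest HF+CR library. It was -2.85 to -1.57 when each library was left out. LF+Ex minus LF ranged over -1.07 to 0.37 and the Ex difference between diets over -0.082 to 1.35 on leaving out each library. The other miR-205-5p values kept sign and call. The r with the miR-200 sum was -0.12 after rescaling and -0.0018 without LF 1 and HF+CR 3, and -0.038 to 0.16 on leaving out each library. With group means removed, r lost its p under 0.05 after rescaling (0.61), with miR-200b-3p alone (0.67), without LF 1 and HF+CR 3 (0.64), without the 3 shallowest libraries (0.52) and without LF+CR 1 and HF+CR 1 (0.73); it was 0.51 to 0.78 on leaving out each library, and p stayed under 0.05 in 9 of 18 such fits.

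Numbers of miRNAs called moved more. For diet (65) they were 6 without the 3 shallowest libraries and 24 without LF+CR 1 and HF+CR 1. For LF+CR against LF (22) they were 0 with only the compared groups, 36 without the shallowest and 5 without LF+CR 1 and HF+CR 1. For LF+Ex against LF (0) they were 1 after rescaling, 1 with voom and 2 without LF+CR 1 and HF+CR 1. For HF+CR against HF (0) they were 25 without LF 1 and HF+CR 3 and 9 without the shallowest. For HF+Ex against HF (3) the number was 1 with no filter, after rescaling, with no trend and with only the compared groups. For the CR difference between diets (3) it was 1 after rescaling, with only the compared groups and without LF+CR 1 and HF+CR 1, and 6 without LF 1 and HF+CR 3 or the shallowest. For the Ex difference between diets (3) it was 5 with no filter, 8 after rescaling, 12 with only the compared groups, 6 without LF 1 and HF+CR 3, 5 without the shallowest and 5 without LF+CR 1 and HF+CR 1. Leaving out each library gave 37 to 91, 5 to 40, 0 to 2, 0 to 22, 0 to 5, 1 to 9 and 2 to 9 calls in that order; the cause was not tested.

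Replicate numbers are shared across groups. Residuals of same-numbered libraries had a mean r of 0.03 (-0.42 to 0.61), near the -0.01 of differently numbered libraries. No pairing by number was thus seen on average, but a mean over pairs cannot exclude it for some libraries. With the replicate block HF+CR minus HF for miR-205-5p was -2.06 (limma adjusted p = 0.153). edgeR and DESeq2, planned as alternatives, were not run; voom on the recovered reads was run in their place. Depth limits the low libraries most: 35 reads in LF+CR 2 give 3.84 to 7.67 RPM. With 3 libraries a group, 1 library such as HF+CR 3 can decide a call.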
